A study of Bos taurus and Bos grunniens x Bos taurus and Bos grunniens with 18 samples.

Results

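The cytosolic ribosomal protein genes of the bovine testis, together with the paralogues that resemble them, were examined in cattle, yaks and their hybrid. A gene was taken when its symbol was RPSA or began with RPL, RPS or RPLP followed by a digit, with the RPS6K kinases left out, and 84 of the 19994 genes of the mRNA table met this rule. Of the 84 genes, 75 encode core subunit proteins, 44 of the large and 31 of the small subunit, and 8 are paralogues. The last, RPS19BP1, carries a matching symbol but encodes a protein that binds a small-subunit protein and is no subunit. A list of 77 core genes was searched, and RPL22 and RPL41 had no row under those symbols and were not analysed here.

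The tissue was whole testis from animals 4 years old: 3 cattle (Bos taurus), 3 cattle-yaks (the cross of Bos grunniens with Bos taurus) and 3 yaks (Bos grunniens), all from the same cooperative, with no treatment. Which species was the dam of the cattle-yaks is not stated in the labels. Total RNA was depleted of ribosomal RNA before sequencing, and expression was given as FPKM, the fragments of a transcript scaled by its length and by the fragments of the library.

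The ribosome is built from a large and a small subunit, each made of ribosomal RNA and a set of small basic proteins that are normally needed in near-equal amounts. Cells that grow and divide make many ribosomes, and ribosomal protein mRNAs are among the most abundant in most tissues. In mammals a few of these genes lie on the X chromosome, which is silenced in male germ cells during meiosis, and several of them have copies elsewhere in the genome. In mouse, the copy Rpl10l is expressed in testis and is needed for male meiosis.

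Marker mRNAs of the germ line and of the somatic cells stood at other levels in the cattle-yak testis than in both parents. All 16 spermatid markers were called lower in cattle-yak against either parent, and their summed level was 18512 to 30718 FPKM in cattle, 20.1 to 118 FPKM in cattle-yak and 23268 to 26052 FPKM in yak. Of 15 spermatocyte markers, 8 were called lower and 2 higher against each parent, and their summed level was 2118 to 2317 FPKM in cattle, 718 to 1111 FPKM in cattle-yak and 2147 to 2571 FPKM in yak. All 11 spermatogonial, 9 Sertoli cell, 7 Leydig cell and 5 peritubular markers were called higher in cattle-yak against each parent. The summed Sertoli cell markers were 547 to 713 FPKM in cattle, 2268 to 2637 FPKM in cattle-yak and 553 to 786 FPKM in yak. Macrophage markers were called higher in 3 of 7 genes against cattle and in 6 of 7 against yak, and endothelial markers in 5 and 4 of 6, with 1 gene of each list called lower in each comparison. Over all genes tested 54.4% were called higher than in cattle and 55.3% higher than in yak, and 30.0% and 30.7% were called lower. The spermatid, spermatogonial, Sertoli cell, Leydig cell and peritubular lists, each called in 1 direction throughout, lay beyond these shares. Of these, the Leydig cell and peritubular lists are short, at 7 and 5 genes, and their counts are only described. The spermatocyte list held a smaller share called higher and a larger share called lower than all genes tested. The macrophage and endothelial counts, mixed in direction and in lists as short, were not read as different from the shares of all genes tested. No marker was at 0 in any library. In such bulk samples fewer cells of a type and less RNA per cell cannot be told apart, and the part of these shifts in the ribosomal protein results below was not tested.

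The ribosomal protein mRNAs took up a larger share of the cattle-yak libraries than of either parent's. Summed over the 75 core genes, their level was 26387, 27373 and 24750 FPKM in cattle, 33925, 41987 and 43461 FPKM in cattle-yak, and 25074, 25848 and 26947 FPKM in yak. In FPKM every cattle-yak library lay above every parent library, and cattle-yak 1 lay below the other 2 cattle-yaks. As a share of all FPKM in the library this was 5.35 to 5.82% in cattle, 8.30 to 9.79% in cattle-yak and 5.21 to 5.66% in yak. The single most abundant spermatid mRNA, PRM1 (protamine 1, which packs sperm DNA), took 2.23 to 4.29% of the sum in cattle and 2.86 to 2.97% in yak, against 0.0012 to 0.0093% in cattle-yak. The core and subunit sums were not computed on the median-ratio scale, which gives the typical gene the same level in each library. Its factors, by which FPKM is divided, were 1.34 to 1.38 in cattle-yak and 0.80 to 0.93 in the parents. The separation of the summed FPKM need not hold there. On that scale the median core gene changed by 0.03 against cattle and by 0.10 against yak.

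**Figure D1:**
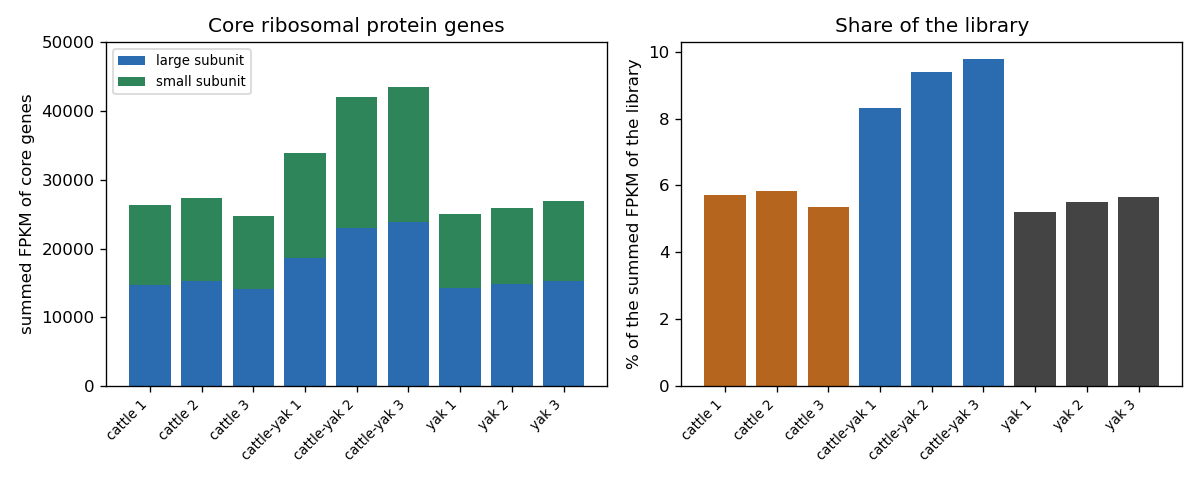
Left, summed FPKM of the core ribosomal protein genes in each of the 9 libraries, stacked by subunit; right, the same sum as a percentage of all FPKM in the library. The 3 cattle-yak libraries reach 33925 to 43461 FPKM and 8.30 to 9.79%, above all 6 parent libraries.

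Both subunits took part in the higher FPKM sum. Large-subunit genes summed to 14108 to 15307 FPKM in cattle, 18622 to 23835 FPKM in cattle-yak and 14242 to 15230 FPKM in yak, and small-subunit genes to 10642 to 12067, 15303 to 19626 and 10832 to 11717 FPKM. The ratio of the large-subunit sum to the small-subunit sum was 1.26 to 1.33 in cattle, 1.21 to 1.22 in cattle-yak and 1.30 to 1.35 in yak. The levels of the single genes lay closer to each other in cattle-yak. Over the 73 core genes with a mean above 10 FPKM, the SD of log2 FPKM was 0.87 to 0.92 in cattle, 0.79 to 0.82 in cattle-yak and 1.08 to 1.17 in yak. Across these 73 genes of the same libraries, the group mean levels of cattle and yak correlated with a Pearson r of 0.94, those of cattle and cattle-yak with 0.85 and those of cattle-yak and yak with 0.81, given as descriptions since genes are not independent replicates.

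Among the most abundant core genes were RPLP1, RPS27, RPS18 and RPL31. RPLP1, an acidic protein of the stalk that recruits elongation factors, stood at 1098, 1426 and 1270.0 FPKM in cattle, 1819, 2218 and 2198 FPKM in cattle-yak and 1303, 1466 and 1541 FPKM in yak. Its cattle-yak libraries did not overlap either parent's, and it was called higher than in cattle (log2 change 0.72 ± 0.17 SE, limma adjusted p = 0.00233) and than in yak (0.53 ± 0.17, adjusted p = 0.013). RPS27, a zinc-binding protein of the small subunit, had means of 679 ± 141 FPKM in cattle, 1234 ± 196 FPKM in cattle-yak and 599 ± 69.8 FPKM in yak (SD, n = 3 each), and was also called higher in cattle-yak against both. When the libraries were instead scaled to give the typical gene the same level in each (the median-ratio scale), neither gene was called against either parent, with log2 changes of 0.14 and -0.13 for RPLP1 and of 0.30 and 0.37 for RPS27. RPL31, at the mouth of the tunnel through which the new peptide leaves, was called higher against both parents by 0.54 ± 0.14 and 0.44 ± 0.14 on the log2 scale, and on the median-ratio scale it was called against neither (-0.04 and -0.23). RPS18 was called higher against yak (0.38 ± 0.14, limma adjusted p = 0.0266) and not against cattle (0.21 ± 0.14, limma adjusted p = 0.192). The call against yak was lost without cattle-yak 2, cattle-yak 3, yak 1 or yak 2 (limma adjusted p of 0.055 to 0.0817). That call was also lost with no filter (limma adjusted p = 0.067), with quantile normalisation (0.0732) and on the median-ratio scale (0.0891). Over 17 settings the range was 0.00261 to 0.0891. On the median-ratio scale RPS18 was called lower than in cattle (-0.37 ± 0.14).

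Gene by gene, most ribosomal protein mRNAs were higher in the cattle-yak testis than in either parent. Log2(FPKM + 1) was fitted with limma over the 14091 genes that reached an FPKM of 1 in no fewer than 3 libraries, and an adjusted p under 0.05 over all of them is named a call. The filter was passed by 83 of the 84 genes, 74 of them core. Against cattle, 58 of the 83 genes (69.9%) were called higher and 3 (3.61%) lower, where 84.4% of all genes tested were called, 54.4% higher and 30.0% lower. Against yak, 59 (71.1%) were called higher and 3 lower, where 86.0% of all genes tested were called, 55.3% higher and 30.7% lower. The shares called higher stood somewhat above the background, while the shares called lower stood far below it. Both comparisons share the 3 cattle-yak libraries and are not independent of each other.

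The median core gene changed by 0.61 on the log2 scale against cattle and by 0.76 against yak, beside 0.50 and 0.54 over all genes tested. The core genes formed a narrower band than the rest, with quartiles of 0.26 and 0.90 against cattle, where all genes tested had quartiles of -0.65 and 1.18. Large- and small-subunit genes lay close together, with medians of 0.59 and 0.62 against cattle and of 0.72 and 0.80 against yak. The rise was tied to the scale on which it was read. When the libraries were scaled so that the typical gene had the same level in each, by median-ratio factors of 0.88 to 0.93 in cattle, 1.34 to 1.38 in cattle-yak and 0.80 to 0.90 in yak, the medians of the core genes became 0.03 and 0.10, beside -0.02 and -0.05 for all genes tested. On that scale, of the 82 genes tested, 20 were called higher than in cattle and 20 lower, while 29 were called higher than in yak and 23 lower. All 20 and all 29 of those called higher had also been called higher on the FPKM scale. Since the higher factors of cattle-yak lower its changes, this overlap follows largely from the scaling and is not separate support. The share of all genes tested that was called on the median-ratio scale is not given here. The counts on that scale therefore have no background beside them.

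**Figure D2:**
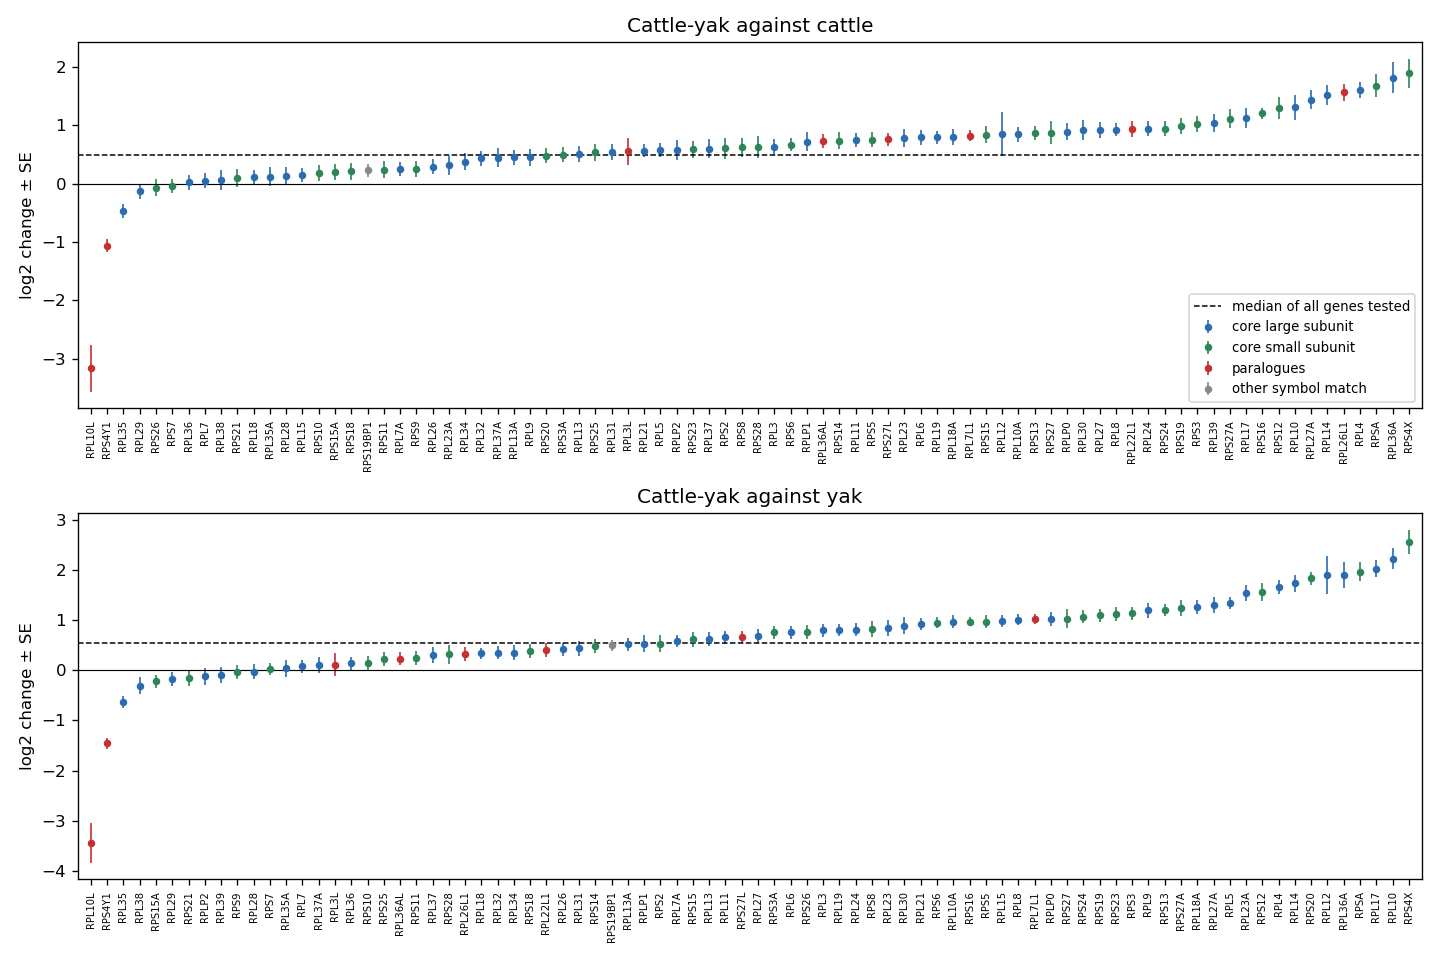
Log2 change in cattle-yak against cattle (top) and against yak (bottom), with standard error, for 82 of the 83 genes tested, ordered by size and coloured by class; the dashed line is the median of all genes tested (0.50 and 0.54). RPL10L, RPS4Y1 and RPL35 lie lowest in both panels and RPS4X highest.

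Within the family the largest rises among core genes belonged to RPS4X, RPL36A and RPSA against cattle and to RPS4X, RPL10 and RPL17 against yak. RPSA, the laminin receptor protein of the small subunit, stood at 442, 358 and 334 FPKM in cattle, 972, 1220 and 1448 FPKM in cattle-yak and 242, 334 and 349 FPKM in yak. The lowest cattle-yak library thus lay above every parent library. RPSA was called higher by 1.67 ± 0.20 on the log2 scale than in cattle (limma adjusted p = 1.81e-05) and by 1.97 ± 0.20 than in yak (adjusted p = 4.93e-06). RPL17, whose protein lines the exit tunnel, stood at 198, 172 and 184 FPKM in cattle, 344, 401 and 474 FPKM in cattle-yak and 77.8, 104 and 115 FPKM in yak. The 3 groups did not overlap. Its rise was 1.12 ± 0.16 against cattle and 2.03 ± 0.16 against yak, and RPSA and RPL17 were called higher against both parents on the median-ratio scale too.

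A single core gene, RPL35, was called lower in cattle-yak against either parent. RPL35, a protein beside the exit tunnel, stood at 729, 712 and 641 FPKM in cattle, 467, 512 and 525 FPKM in cattle-yak and 825, 746 and 768 FPKM in yak. All 3 cattle-yak libraries lay below all 6 parent libraries. The log2 change was -0.47 ± 0.12 relative to cattle (limma adjusted p = 0.00436) and -0.64 ± 0.12 relative to yak (adjusted p = 0.000565). A further 21 of the 74 core genes were not called against cattle and 19 were not called against yak. RPL29 had means of 309 ± 41.6, 281 ± 32.4 and 315 ± 14.8 FPKM in cattle, cattle-yak and yak, and RPL38, which in mouse embryos is needed for the translation of Hox mRNAs, had 483 ± 85.3, 505 ± 79.4 and 620 ± 39.5 FPKM (SD, n = 3 each). Neither was called in any comparison of FPKM, but on the median-ratio scale both were called lower in cattle-yak than in cattle (-0.71 and -0.51) and than in yak (-0.83 and -0.97). RPS15A, a small-subunit protein with means of 513 ± 38.9, 591 ± 57.0 and 688 ± 57.0 FPKM, was likewise not called, with an adjusted p of 0.0504 in limma for yak against cattle. Under median-ratio scaling it was called lower in cattle-yak than in either parent (-0.38 and -0.88) and higher in yak than in cattle (0.51). RPS26, which contacts the mRNA on the small subunit, was not called against cattle (-0.07 ± 0.14, limma adjusted p = 0.658) and was called higher against yak (0.76 ± 0.14, limma adjusted p = 0.000537). After median-ratio scaling it was called lower against cattle (-0.64 ± 0.15, limma adjusted p = 0.00295) and was not called against yak (0.10 ± 0.15, limma adjusted p = 0.547).

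X-linked genes and the copies that resemble them were compared as pairs. RPL10, RPS4X and RPL36A are X-linked in mammals, and each has a copy named RPL10L, RPS4Y1 and RPL36AL. Despite its symbol, which in human marks a gene of the Y chromosome, RPS4Y1 lies between SRSF3 and CDKN1A in the RefSeq table of cattle, an assembly other than the one the authors used. RPL10L lies there beside MDGA2 and RPL36AL between LRR1 and MGAT2. The labels do not say how reads that match both members of a pair were assigned, so the split between near-identical copies is uncertain.

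RPL10, which sits near the centre of the large subunit where peptide bonds form, stood at 115, 102 and 78.2 FPKM in cattle, 189, 261 and 284 FPKM in cattle-yak and 38.0, 62.5 and 54.3 FPKM in yak. Its copy RPL10L went the other way, with 152, 152 and 160.4 FPKM in cattle, 33.7, 18.3 and 6.89 FPKM in cattle-yak and 194, 193 and 177 FPKM in yak. In neither gene did the cattle-yak libraries overlap a parent's. RPL10 was called higher by 1.30 ± 0.22 than in cattle (limma adjusted p = 0.000218) and by 2.23 ± 0.22 than in yak, and RPL10L was called lower by -3.16 ± 0.40 (adjusted p = 3.17e-05) and -3.44 ± 0.40. RPL10L had the lowest log2 change of all 83 genes in both comparisons. Summed over the pair, the level was 253 ± 14.3 FPKM in cattle, 264 ± 36.3 FPKM in cattle-yak and 239.5 ± 13.6 FPKM in yak (SD, n = 3 each). On the FPKM scale the libraries of the groups overlapped in this sum. RPL10L made up 61.4 ± 5.27% of the pair in cattle, 8.01 ± 6.50% in cattle-yak and 78.6 ± 4.39% in yak.

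RPS4X, a small-subunit protein, stood at 105, 93.9 and 89.6 FPKM in cattle, 278, 371 and 445 FPKM in cattle-yak and 40.2, 82.6 and 64.9 FPKM in yak. RPS4Y1 stood at 138, 138 and 149 FPKM in cattle, 72.1, 72.5 and 58.3 FPKM in cattle-yak and 193, 191 and 176 FPKM in yak. In both genes the cattle-yak libraries lay outside the range of both parents, RPS4X above and RPS4Y1 below. RPS4X was called higher by 1.89 ± 0.24 than in cattle (limma adjusted p = 3.67e-05) and by 2.56 ± 0.24 than in yak, and RPS4Y1 was called lower by -1.07 ± 0.11 (adjusted p = 7.67e-06) and -1.46 ± 0.11. Here the sum of the pair was not level on the FPKM scale, at 238 ± 5.83 FPKM in cattle, 432 ± 77.3 FPKM in cattle-yak and 249 ± 21.3 FPKM in yak. RPS4Y1 made up 59.6 ± 2.86%, 16.2 ± 4.50% and 75.2 ± 6.75% of it. The sums of this pair and of RPL10 with RPL10L were not computed on the median-ratio scale. Its factors were 0.88 to 0.93 in cattle, 1.34 to 1.38 in cattle-yak and 0.80 to 0.90 in yak. Dividing by these factors lowers the cattle-yak sums relative to those of both parents. Whether a pair sum was level is therefore stated for FPKM only. The overlap of the RPL10 and RPL10L sums need not hold on the median-ratio scale.

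RPL36A, of the large subunit, stood at 71.5, 58.8 and 45.6 FPKM in cattle, 156, 238 and 234 FPKM in cattle-yak and 35.5, 68.3 and 64.6 FPKM in yak. Unlike the other 2 copies, RPL36AL did not fall, with 120.2, 118 and 95.6 FPKM in cattle, 165, 196 and 195 FPKM in cattle-yak and 164, 158 and 148 FPKM in yak. RPL36A was called higher against both parents (1.81 ± 0.27 and 1.91 ± 0.27), and RPL36AL was called higher against cattle (0.73 ± 0.12, limma adjusted p = 0.000226) but not against yak (0.24 ± 0.12, limma adjusted p = 0.0908). On the median-ratio scale RPL36AL was not called against cattle (0.16 ± 0.14) and was called lower against yak (-0.42 ± 0.14, limma adjusted p = 0.015). The calls of RPL10, RPL10L, RPS4X, RPS4Y1 and RPL36A against both parents held on that scale with the same signs. RPL36AL made up 65.7 ± 2.68%, 47.4 ± 3.51% and 73.9 ± 7.23% of its pair in cattle, cattle-yak and yak.

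**Figure D3:**
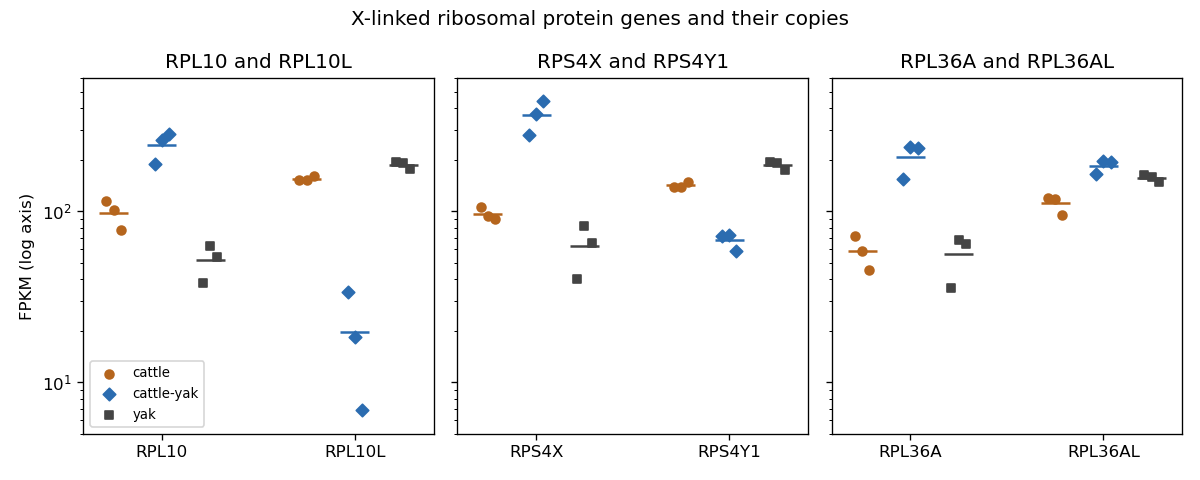
FPKM in each library on a log axis for the X-linked genes RPL10, RPS4X and RPL36A and their copies RPL10L, RPS4Y1 and RPL36AL; horizontal lines are group means, n = 3. The cattle-yak points lie above both parents for each X-linked gene, and below both for RPL10L and RPS4Y1.

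The log2 ratio of copy to core gene within a library does not depend on how libraries are scaled against each other, apart from the pseudocount of 1. It was compared for 7 pairs in 3 comparisons, 21 tests in all, by exact two-sided permutation over libraries, in which 3 against 3 cannot go below p = 0.1. The ratio of RPL10L to RPL10 was lower in cattle-yak by -4.47 against cattle and -5.67 against yak, that of RPS4Y1 to RPS4X by -2.95 and -4.01, and that of RPL36AL to RPL36A by -1.08 and -1.67. For each of these 3 pairs the libraries of the groups did not overlap in any comparison, which gave the smallest p possible (exact p = 0.1, 0.15 after adjustment over the 21 tests). The parents also stood apart in these ratios, which were higher in yak than in cattle by 1.21, 1.06 and 0.59.

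The remaining paralogues did not share a single pattern. RPL7L1, a nucleolar relative of RPL7 that takes part in ribosome assembly, stood at 33.8, 34.2 and 35.1 FPKM in cattle, 58.9, 63.3 and 62.3 FPKM in cattle-yak and 31.0, 26.4 and 32.1 FPKM in yak. It was called higher in cattle-yak by 0.82 ± 0.10 than in cattle (limma adjusted p = 2.02e-05) and by 1.02 ± 0.10 than in yak, while RPL7 itself was not called in either comparison (0.05 ± 0.13 and 0.08 ± 0.13). RPL7L1 was still called higher on the median-ratio scale (0.26 and 0.37) and RPL7 was called lower (-0.53 and -0.58). The ratio of RPL7L1 to RPL7 was accordingly higher in cattle-yak by 0.77 against cattle and 0.94 against yak, without overlap of libraries (exact p = 0.1, adjusted 0.15).

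RPL26L1 set the parents apart. It stood at 6.09, 6.75 and 8.55 FPKM in cattle, 20.2, 24.8 and 23.7 FPKM in cattle-yak and 18.0, 19.9 and 16.3 FPKM in yak, so that cattle was low and the other 2 groups lay near each other. It was called higher than in cattle both in cattle-yak (1.56 ± 0.14, limma adjusted p = 3.20e-06) and in yak (1.24 ± 0.14, adjusted p = 0.000271). Its call in cattle-yak against yak lay at the threshold (0.33 ± 0.14, limma adjusted p = 0.0498) and the adjusted p of limma stayed under 0.05 in 5 of 17 alternative settings (0.0093 to 0.189). RPL26, the core gene, was not called between the parents, and the ratio of RPL26L1 to RPL26 was higher than in cattle by 1.27 in cattle-yak and 1.37 in yak, with a difference of -0.10 between those 2 groups.

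RPL22L1, the relative of RPL22, stood at 39.9, 35.7 and 36.0 FPKM in cattle, 57.1, 78.0 and 83.1 FPKM in cattle-yak and 56.7, 54.2 and 50.5 FPKM in yak. It was called higher in cattle-yak against cattle (0.93 ± 0.14) and against yak (0.41 ± 0.14, limma adjusted p = 0.0164), and the second call was lost without cattle-yak 2 (limma adjusted p = 0.0617), cattle-yak 3 (0.0596) or yak 3 (0.0546), in a range of 0.000724 to 0.145 over all 17 settings. RPS27L, known in human as a target of the tumour suppressor p53, rose alongside RPS27, from 88.8 ± 1.30 FPKM in cattle and 95.0 ± 15.1 FPKM in yak to 151 ± 6.48 FPKM in cattle-yak (SD, n = 3 each). RPS27L was, on the median-ratio scale, not called against cattle (0.18 ± 0.10) or yak (0.012 ± 0.10). The ratio of RPS27L to RPS27 differed by -0.12 against cattle (exact p = 0.5) and by -0.36 against yak (exact p = 0.1). RPL3L, the form of RPL3 found in heart and skeletal muscle, was near the lower limit, at 0.51, 0.75 and 0.47 FPKM in cattle, 2.05, 1.05 and 0.96 FPKM in cattle-yak and 0.97, 0.67 and 1.91 FPKM in yak, beside 224 to 447 FPKM for RPL3. Its call against cattle (0.55 ± 0.23, limma adjusted p = 0.0415) was lost without cattle 1 (limma adjusted p = 0.0957), cattle 3 (0.106) or yak 1 (0.051), and also with the replicate number as a block (0.0603), with no filter (0.0551) and on the median-ratio scale (0.279). Over 14 settings the range was 0.0299 to 0.279.

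Of the core genes, 2 were listed at or near 0, although they encode core subunit proteins. RPL39 was listed at 0 in all 3 cattle libraries, at 0.87, 1.16 and 1.15 FPKM in cattle-yak and at 1.15, 0.77 and 1.75 FPKM in yak. RPS29 was listed at 0, 0.14 and 0.24 FPKM in cattle, 0.32, 0.55 and 0.35 FPKM in cattle-yak and 0.23, 0.22 and 0.31 FPKM in yak, and did not pass the filter. RPL39 and the paralogue RPL3L reached an FPKM of 1 only in cattle-yak and yak libraries, and so passed the filter through the groups where they are high. Both count among the calls of cattle-yak against cattle above, and RPL39 also among those of yak against cattle. Neither gene's calls are used as support. No fold against cattle is given for RPL39. The other 73 core genes had means above 10 FPKM.

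Between the parent species the family differed little. Yak against cattle, 6 of 83 genes (7.23%) were called higher and 11 (13.3%) lower, where 19.1% of all genes tested were called, 8.36% higher and 10.7% lower. The median core gene differed by -0.08, beside -0.06 for all genes tested. The shares called lay near the background. The only genome build named, UMD3.1, is of cattle, and its effect on the yak and cattle-yak values was not tested. All 11 genes called lower in yak were core genes, with log2 changes of -1.36 to -0.36, and 4 of the 6 called higher were paralogues, namely RPL26L1, RPL22L1, RPL36AL and RPS4Y1. The call of RPL22L1 was lost without cattle 2, cattle 3, yak 1 or yak 2 (limma adjusted p of 0.071 to 0.0876) and with the replicate number as a block (0.0501), and that of RPL36AL without cattle 3, yak 1 or yak 2 (limma adjusted p of 0.0579 to 0.0628). Over all 17 settings their adjusted p ranged from 0.00634 to 0.0876 and from 0.0141 to 0.0628.

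RPS20, a protein of the head of the small subunit, differed most. It stood at 349, 344 and 320 FPKM in cattle, 419, 522 and 478 FPKM in cattle-yak and 125, 116 and 155 FPKM in yak, and the 3 groups did not overlap. It was lower in yak by -1.36 ± 0.14 (limma adjusted p = 0.000118), and higher in cattle-yak against yak by 1.84 ± 0.14. RPL23A, which docks factors at the exit tunnel, stood at 125, 104 and 128 FPKM in cattle, 173, 115 and 162 FPKM in cattle-yak and 55.3, 46.6 and 47.4 FPKM in yak. Cattle and cattle-yak overlapped and yak lay below both, by -1.24 ± 0.16 against cattle (limma adjusted p = 0.000576). RPL10 (-0.93 ± 0.22, limma adjusted p = 0.0147), RPL17 (-0.91 ± 0.16) and RPS26 (-0.83 ± 0.14) were also called lower in yak than in cattle. The call of RPL10 was lost without cattle 1 (limma adjusted p = 0.058) or cattle 2 (0.054), in a range of 0.00928 to 0.058.

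RPLP2, the partner of RPLP1 in the stalk, was the core gene called higher in yak besides RPL39. It stood at 414, 538 and 496 FPKM in cattle, 579, 789 and 803 FPKM in cattle-yak and 700.1, 771 and 866 FPKM in yak, so that cattle was low and the others overlapped. The difference of yak from cattle was 0.69 ± 0.17 (limma adjusted p = 0.0192) and was no longer called without cattle 1, yak 2 or yak 3 (limma adjusted p of 0.0532 to 0.0732). RPLP2 was, on the median-ratio scale, called lower in cattle-yak than in yak (-0.78 ± 0.16). RPL12, at the base of the stalk, had the third lowest change of the core genes in yak against cattle (-1.05 ± 0.38) without a call (limma adjusted p = 0.0804). Its cattle libraries spread widely, at 146, 142 and 60.1 FPKM, beside 39.7, 53.2 and 64.7 FPKM in yak. RPS4Y1 was called higher in yak than in cattle (0.39 ± 0.11, limma adjusted p = 0.0335), a call lost without any of cattle 1, 2 and 3 or yak 1 and 2 (limma adjusted p of 0.0543 to 0.104). That call was also lost with quantile normalisation (limma adjusted p = 0.0915), an equal sum of FPKM (0.0611) and the replicate number as a block (0.0539). Its adjusted p in limma stayed under 0.05 in 9 of 17 alternative settings. The number of genes called higher in yak fell from 6 to 2 without yak 2, and to 3 without yak 1 or cattle 3. The number called lower fell from 11 to 7 without cattle 2.

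**Figure D4:**
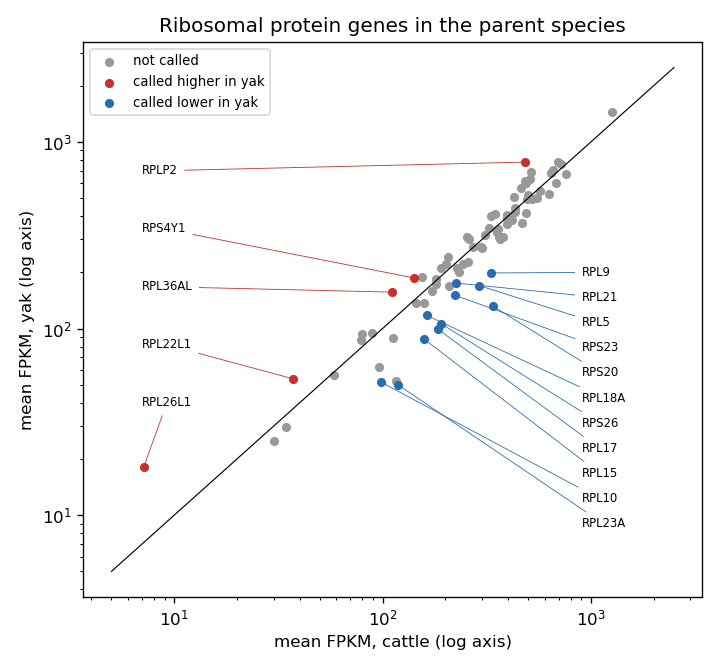
Mean FPKM (n = 3) in yak against cattle on log axes for the ribosomal protein genes, with the line of equal level; coloured points were called in limma. RPL39, RPS29 and RPL3L, all under 5 FPKM, and 1 further gene are not drawn. Genes called lower in yak cluster below the line, and RPL26L1 lies farthest above it.

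Other parts of the translation machinery did not all move with the ribosomal proteins. Of 50 genes of ribosome biogenesis, 36 were called higher in cattle-yak than in cattle and 5 lower, and 37 higher than in yak and 5 lower, with medians of 0.79 and 0.89 on the log2 scale, beside 0.50 and 0.54 for all genes tested, of which 54.4% and 55.3% were called higher. Nucleolin (NCL), a nucleolar RNA-binding protein, rose from 98.1 ± 2.74 FPKM in cattle to 201 ± 13.7 FPKM in cattle-yak, and nucleophosmin (NPM1) from 113 ± 2.81 to 255 ± 30.4 FPKM. UBTF, a factor of ribosomal RNA transcription, rose from 12.9 ± 0.93 to 43.8 ± 5.13 FPKM. The genes called lower included NOC4L (14.4 ± 2.21 to 6.74 ± 1.16 FPKM) and GNL2 (50.6 ± 4.58 to 30.2 ± 5.00 FPKM). On the median-ratio scale, for which no background share is given, 24 were called higher than in cattle and 11 lower. Against yak 26 were called higher and 13 lower. These genes and the elongation factors below were chosen as examples after their values were seen.

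Elongation factors, with related genes that handle mRNA on the ribosome, were called in both directions at shares not far from the background. Of 14 genes 7 were called higher than in cattle and 5 lower, and 7 higher than in yak and 6 lower, with medians of 0.05 and 0.17. Over all genes tested 54.4% and 55.3% were called higher and 30.0% and 30.7% lower. TPT1 rose from 411 ± 27.8 FPKM in cattle to 1193 ± 249 FPKM in cattle-yak, and EEF2, which moves the ribosome along the mRNA, from 245 ± 1.98 to 367 ± 34.1 FPKM. EEF1G fell from 371 ± 25.7 to 158 ± 11.0 FPKM and EEF1D from 155 ± 13.0 to 60.4 ± 3.64 FPKM. EEF1B2 went the other way, from 143 ± 1.49 FPKM in cattle to 197 ± 7.35 FPKM in cattle-yak. PABPC1, which binds poly(A) tails, fell from 223 ± 11.4 to 97.8 ± 9.81 FPKM. On the median-ratio scale, for which no background share is given, 1 of the 14 was called higher than in cattle and 7 lower. Without cattle-yak 3 the number called higher than in cattle on the FPKM scale was 4 in place of 7.

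The genes of the mitochondrial ribosome were called higher at shares below the background and called lower at shares near it. Of 78 such genes, 37 were called higher than in cattle and 23 lower, and 32 higher than in yak and 27 lower, with medians of 0.16 and 0.13, beside 0.50 and 0.54 over all genes tested. The background against cattle was 54.4% called higher and 30.0% called lower, and against yak it was 55.3% and 30.7%. Their summed level was 2878 to 3054 FPKM in cattle, 2750 to 3017 FPKM in cattle-yak and 3217 to 3331 FPKM in yak, and the cattle and cattle-yak libraries overlapped. On the median-ratio scale, for which no background share is given, 20 were called higher than in cattle and 42 lower. Against yak 16 were called higher and 50 lower.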

How the data were processed

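Testis RNA of 9 libraries was used, 3 each of cattle, cattle-yak and yak, grouped by title. The mRNA values were deposited by the authors as FPKM per transcript. Per the submitters' processing notes Bowtie, Cufflinks, HISAT2 (2.0.5), StringTie (1.3.4) and Trimmomatic were used with UMD3.1, a cattle genome and the only build named. No source names the tool that made the FPKM. Of 22118 transcript rows, 87 belonged to the 84 genes, and FPKM was summed per gene. All 84 symbols were found in the RefSeq table of cattle, used for names and neighbours. Low values did not fall into whole-read steps (1.24 to 2.11% of them at the commonest ratio), so read depth is unknown and no count test was run. A limma model (version 3.58.1, R 4.3.3) of log2(FPKM + 1) had a group term and a trend and was two-sided, with Benjamini-Hochberg adjustment over 14091 genes, and the fit was tested on simulated data. Copy-to-core ratios were compared by exact permutation (scipy 1.17.1). Other scalings, pseudocounts, filters and left-out libraries were tried. A value of 0 stood beside one above 10 FPKM in another library for 93 genes. The labels give 3 animals for each group.

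Named genes were the paralogues and the core gene of each pair, the 3 highest and 3 lowest core genes of each comparison, the 5 most abundant, and core genes called against the majority. The members and lists were chosen with earlier results of these data known. The circRNA table, which gives no host gene, and the 9 small-RNA samples were not analysed here. Of the marker and pathway lists, SOX9 and FAU had no row under that symbol, nor had the paralogues RPL39L and RPS4Y2. Some items are not reported here by name, though they stay in the fits, sums and counts.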

Additional observations from a re-analysis of the deposited data

How the results depend on the processing

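The number of genes called, the median change of the core genes and the copy-to-core ratios were recomputed under every planned setting. Median-ratio scaling changed most: 20 genes were called higher in cattle-yak than in cattle and 20 lower, 29 were called higher than in yak and 23 lower, and the core medians became 0.0255 against cattle, 0.10 against yak and 0.0004, with a changed sign, for yak against cattle. With quantile normalisation 5 genes were called lower against yak and the core median of yak against cattle was -0.17. Leaving out 1 library in turn, 2 to 7 genes were called higher and 7 to 14 lower in yak against cattle. With the replicate number as a block, 58 genes were called higher in cattle-yak than in cattle and 3 lower, 57 higher than in yak and 3 lower, and in yak against cattle 4 higher and 10 lower. Libraries with the same number had correlations of -0.17 to 0.23 between their deviations, so the numbers were not taken as pairs. The ratio of RPL3L to RPL3 in cattle-yak against cattle changed sign with a pseudocount of 0.1 (0.41) and when 1 library was left out (-0.42 to 0.12), and that of RPS27L to RPS27 when 1 library was left out (-0.23 to 0.0576).

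With median-ratio scaling the sign of the log2 change turned for 31 of 82 genes against cattle, 13 of them called higher on the FPKM scale, for 29 against yak, 17 of them called higher, and for 7 in yak against cattle. This scaling divides each library by its own factor, so it lowered the cattle-yak changes of all but low genes by a near-equal amount. Small rises therefore turned sign, as RPL26 did against cattle from 0.29 to -0.29 and RPL7 from 0.05 to -0.53. The share of all genes whose sign turned is not given here, so these counts have no background beside them. Among the genes named here the sign turned against cattle for RPL23A (-0.26), RPL26 (-0.29), RPL31 (-0.0355), RPL38 (-0.51), RPL7 (-0.53), RPLP2 (-0.0011), RPS15A (-0.38), RPS18 (-0.37) and RPS20 (-0.10). Against yak it turned for RPL22L1 (-0.24), RPL26 (-0.24), RPL26L1 (-0.31), RPL31 (-0.23), RPL36AL (-0.42), RPL3L (-0.23), RPL7 (-0.58), RPLP1 (-0.13) and RPS18 (-0.28), and in yak against cattle for RPL7 (0.0544). With quantile normalisation it turned against cattle for RPL29 (0.0179), RPL38 (-0.0472), RPL7 (-0.0394) and RPS26 (0.20), against yak for RPL29 (0.0785) and RPL3L (-0.038), and in yak against cattle for RPL29 (-0.0606). With an equal sum of FPKM it turned for RPS26 against cattle (0.0339) and RPLP2 against yak (0.0191). Leaving out 1 library, the range crossed 0 against cattle for RPL38 (-0.0768 to 0.20), RPL7 (-0.0246 to 0.16) and RPS26 (-0.23 to 0.0473). Against yak it did so for RPL39 (-0.24 to 0.0757), RPL3L (-0.0565 to 0.23) and RPLP2 (-0.20 to 0.0364). In yak against cattle it did so for RPL29 (-0.0507 to 0.14), RPL36A (-0.26 to 0.20), RPL7 (-0.0616 to 0.0215) and RPS27L (-0.036 to 0.18). Beyond the near-equal shift of median-ratio scaling, the cause was not tested for any of these.

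The read depth behind the FPKM is unknown, so no counting interval can be given, and the lowest genes (RPL3L, RPL39, RPS29) are the least certain. With 3 libraries a group the permutation tests cannot pass 0.05.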
